A study of Homo sapiens with 6 samples.

Results

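The genes described here are 10 enzymes that make serine and pass its carbon on to folate, namely PHGDH, PSAT1, PSPH, SHMT1, SHMT2, MTHFD1, MTHFD2, MTHFD1L, ALDH1L2 and TYMS. They were chosen by name, with earlier results of these data known, and all 10 are among the 12486 genes of the deposited table. RNA-seq had been performed on K562 cells, a human chronic myeloid leukemia line that carries Bcr-Abl, with stable expression of a control shRNA, sh-luc, or of sh-IUR1, an shRNA that targets lncRNA-IUR1 (lncRNA-up91 in the labels). Each group holds 3 libraries, of which 1 carries no number and the others are r1 and r2. The methods describe independent groups of cells, delivered their shRNAs by lentivirus, name 1 shRNA sequence for the human lncRNA, and do not state whether the cells are single clones. No drug is named for these libraries. The comparison asks which transcripts differ when lncRNA-IUR1 is knocked down, and the level of lncRNA-IUR1 itself was not analysed here.

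In the serine synthesis pathway a glycolytic intermediate is turned into serine by PHGDH, PSAT1 and PSPH in turn. The serine hydroxymethyltransferases SHMT1 (cytosol) and SHMT2 (mitochondria) then split serine into glycine and a one-carbon unit bound to tetrahydrofolate. In mitochondria MTHFD2 and MTHFD1L oxidise and release that unit as formate, and the cytosolic enzyme MTHFD1 takes formate up for purine and thymidylate synthesis. Proliferating cells depend on these units, and several of the genes are known targets of ATF4, the transcription factor of the integrated stress response.

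None of the 10 enzymes passed the test between sh-IUR1 and sh-luc cells (limma with Benjamini-Hochberg adjustment), and the groups overlapped for all of them except SHMT1. Of all 12276 genes tested, 0 passed, and the groups did not overlap for 868 (7.07%). A library profile was shared by 7 of the 10 (PHGDH, PSAT1, PSPH, SHMT1, SHMT2, MTHFD2 and ALDH1L2), which were lowest in the unnumbered sh-luc library and highest in sh-IUR1 r1. Among all 12276 genes tested, 2247 (18.3%) had these 2 libraries at their extremes. ALDH1L2 varied most, 2.76-fold from the lowest to the highest library, and MTHFD1 least, 1.09-fold. MTHFD1, MTHFD1L and TYMS, the remaining members, followed other orders.

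The values are FPKM, fragments scaled to transcript length and to the mapped fragments of a library, so that levels can be compared between genes. The number of fragments behind a value is unknown, and the sum over all genes, between 579820 and 606240 FPKM in a library, is not a depth. In bulk RNA, fewer cells with a transcript and less of it per cell cannot be told apart. Of the 8 erythroid markers checked, 8 were listed, with HBG2 at up to 3565 FPKM, and in every library their sum was at least 4982 FPKM. T cell markers summed to at most 5.08 FPKM, B cell markers to at most 1.36 and the only listed fibroblast marker, COL1A1, reached 0.37 FPKM. LYZ, lysozyme, was at 107.0 to 118.7 FPKM in all 6 libraries, while the other monocyte markers checked, CD14 and CSF1R, were not among the listed genes. Nor were CD2 (T cell), MS4A1 (B cell), COL1A2 and DCN (fibroblast). The unnumbered sh-luc library stood apart for many genes: 38.4% of all genes tested were lowest in it, and so were 9 of the 10 enzymes. The differences of the enzymes and the medians of the gene lists are therefore given with and without it, together with those of some other named genes.

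The promoter sequence is shown for PSAT1 and MTHFD2, which shared the library profile described above, and for MTHFD1L, which did not. RefSeq windows (GRCh38.p14, 250 bases before to 50 after a start site) were matched for 7 of the 10 genes, and PSPH, SHMT2 and ALDH1L2 were not matched. The capitals mark the CCAAT box in the 250 bases before the start site used for PSAT1 (chr9:78296875-78297124, plus strand) and for MTHFD2 (chr2:74198365-74198614, plus strand). In the stretch of MTHFD1L (chr6:150866346-150866375, plus strand) they mark the core of the C/EBP-ATF response element, which ATF4 binds. GENCODE release 44 places this stretch within an exon (150866333 to 150866387) of a MTHFD1L transcript. The PSAT1 stretch overlaps no annotated exon, and the MTHFD2 stretch overlaps a lncRNA exon on the opposite strand that ends at 74198560 and, in its last bases, an exon of MTHFD2 that begins at 74198610.
PSAT1: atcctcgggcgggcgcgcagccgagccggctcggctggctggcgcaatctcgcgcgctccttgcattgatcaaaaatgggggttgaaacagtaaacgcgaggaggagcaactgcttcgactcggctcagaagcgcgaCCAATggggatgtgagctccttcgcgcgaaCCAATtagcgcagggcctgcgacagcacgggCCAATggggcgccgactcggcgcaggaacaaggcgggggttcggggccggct
MTHFD2: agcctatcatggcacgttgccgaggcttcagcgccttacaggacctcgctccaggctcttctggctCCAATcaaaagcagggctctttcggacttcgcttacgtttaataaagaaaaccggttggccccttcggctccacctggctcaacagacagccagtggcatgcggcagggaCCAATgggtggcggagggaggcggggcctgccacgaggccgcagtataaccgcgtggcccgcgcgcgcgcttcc
MTHFD1L: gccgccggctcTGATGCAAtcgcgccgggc

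On either strand, CCAAT was found in at least 1 window for 6 of the 7 matched enzymes (PHGDH, PSAT1, SHMT1, MTHFD1, MTHFD2 and MTHFD1L). CCAAT was also found in 34.6% of all 35116 windows. Relative to the start it begins at position -71 for PHGDH, at -113, -83 and -52 for PSAT1 and at -184 and -74 for MTHFD2. The response element core, searched as TGATGNAA, was found for MTHFD1L alone of these 7 and in 3.62% of all windows. The E box CACGTG was found for MTHFD1 and MTHFD1L and in 7.26% of all windows. None of the 3 motifs was found for TYMS. An enzyme was counted if any of its windows held the motif, whereas the percentages are of single windows. MTHFD1L had 4 windows and each other matched enzyme had 1, so the enzyme counts and the percentages are not directly comparable. No match of one motif overlapped a match of another, and each is a description of letters in a window, not of binding. Both genes that shared the profile and genes that did not carried CCAAT.

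**Figure D1:**
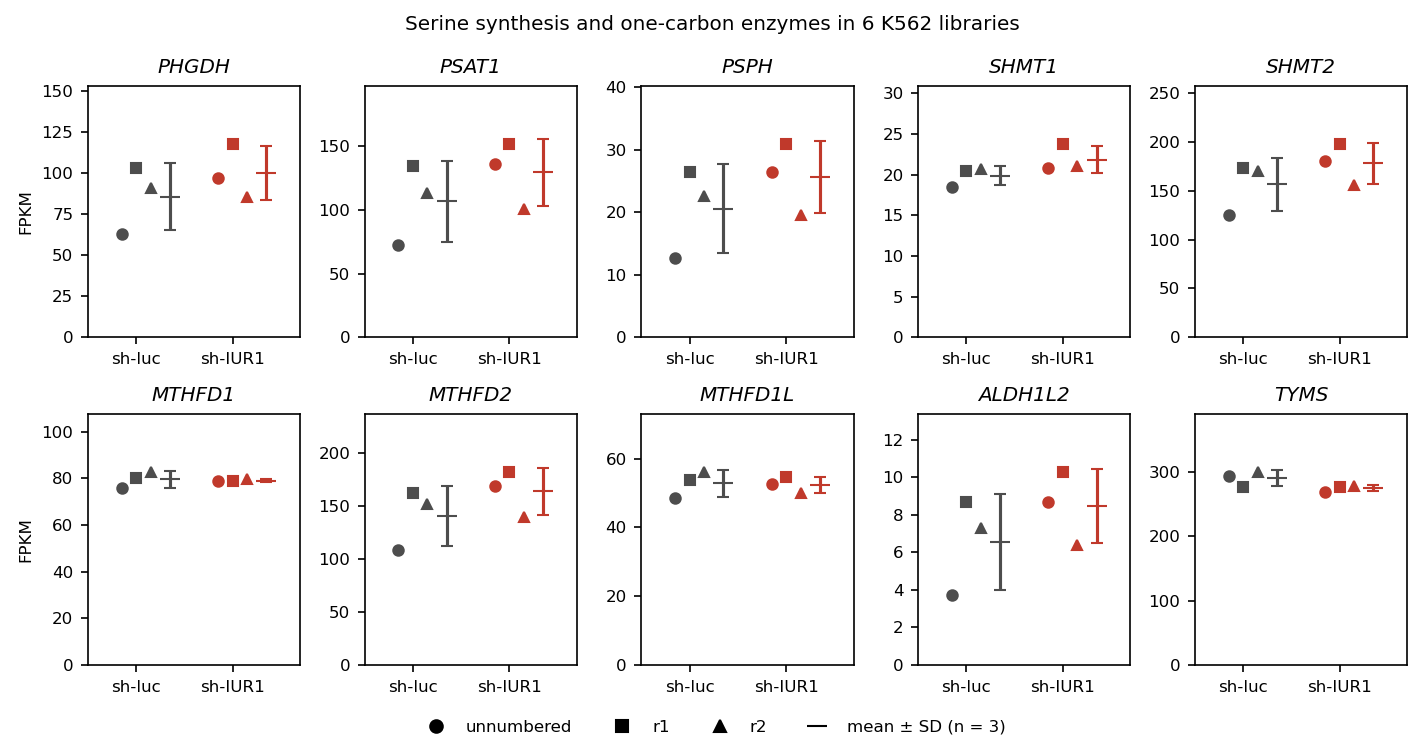
FPKM of the 10 enzymes (y axis, linear from 0) in the sh-luc and sh-IUR1 groups (x axis), with a circle for the unnumbered library, a square for r1, a triangle for r2 and a bar for the mean ± SD of n = 3. The unnumbered sh-luc library is the lowest point for every enzyme but TYMS, and SHMT1 is the only enzyme whose groups do not overlap.

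PHGDH (gene 26227, chr1:119648411-119744218, plus strand), which oxidises 3-phosphoglycerate and commits it to serine, had levels of 62.8 FPKM in the unnumbered sh-luc library, 102.8 in r1 and 90.6 in r2, the order kept for all values that follow. The sh-IUR1 libraries had it at 97.0, 117.5 and 85.0 FPKM. The groups overlapped, since sh-IUR1 r2 was below both numbered sh-luc libraries. The means were 85.4 ± 20.5 FPKM in sh-luc and 99.8 ± 16.4 FPKM in sh-IUR1 (SD, n = 3 each), a ratio of 1.17. On the log2(FPKM + 1) scale the difference was 0.24 with a 95% interval of -0.13 to 0.61 and an adjusted p of 0.930 from limma. Without the unnumbered sh-luc library it was 0.036 (-0.21 to 0.28), and without sh-luc r1 it was 0.39.

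PSAT1 (gene 29968, chr9:78297125-78330093, plus strand), the transaminase that takes its amino group from glutamate, was at 72.3, 134.7 and 113.4 FPKM in sh-luc. It was at 136.6, 152.0 and 100.5 FPKM in sh-IUR1. Here sh-IUR1 r2 fell between the unnumbered and the numbered sh-luc libraries. The means were 106.8 ± 31.7 and 129.7 ± 26.4 FPKM (SD, n = 3 each), and the log2 difference was 0.30 (-0.16 to 0.77, adjusted p = 0.930 from limma). It was 0.048 without the unnumbered sh-luc library and 0.49 without sh-luc r1.

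PSPH (gene 5723, chr7:56011051-56051604, minus strand), the phosphatase that releases free serine, was at 12.7, 26.46 and 22.5 FPKM in sh-luc and at 26.45, 30.9 and 19.5 FPKM in sh-IUR1. Its unnumbered sh-luc value was less than that of any other library, and sh-luc r1 was 2.09 times as high. The mean was 20.6 ± 7.10 FPKM in sh-luc and 25.6 ± 5.77 FPKM in sh-IUR1 (SD, n = 3 each), with a log2 difference of 0.34 (-0.19 to 0.87, adjusted p = 0.930 from limma). This difference was 0.043 without the unnumbered sh-luc library and 0.55 without sh-luc r1. RefSeq lists a pseudogene for PSPH, PSPHP1, and 4 for PSAT1, which were not analysed here, and how reads shared with such copies were counted is not given in the sources used here.

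The ratios of PSAT1 to PSPH and to PHGDH varied less over the 6 libraries than the levels of these enzymes. The ratio of PSAT1 to PSPH in FPKM was 5.70, 5.09 and 5.03 in the controls and 5.16, 4.91 and 5.16 in the knockdown, and that of PSAT1 to PHGDH was between 1.151 and 1.41 over the 6 libraries. PSPH itself varied 2.44-fold, PSAT1 2.10-fold and PHGDH 1.87-fold between the lowest and the highest library. With the unnumbered sh-luc library set aside these ranges were 1.59-fold, 1.51-fold and 1.38-fold.

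**Figure D2:**
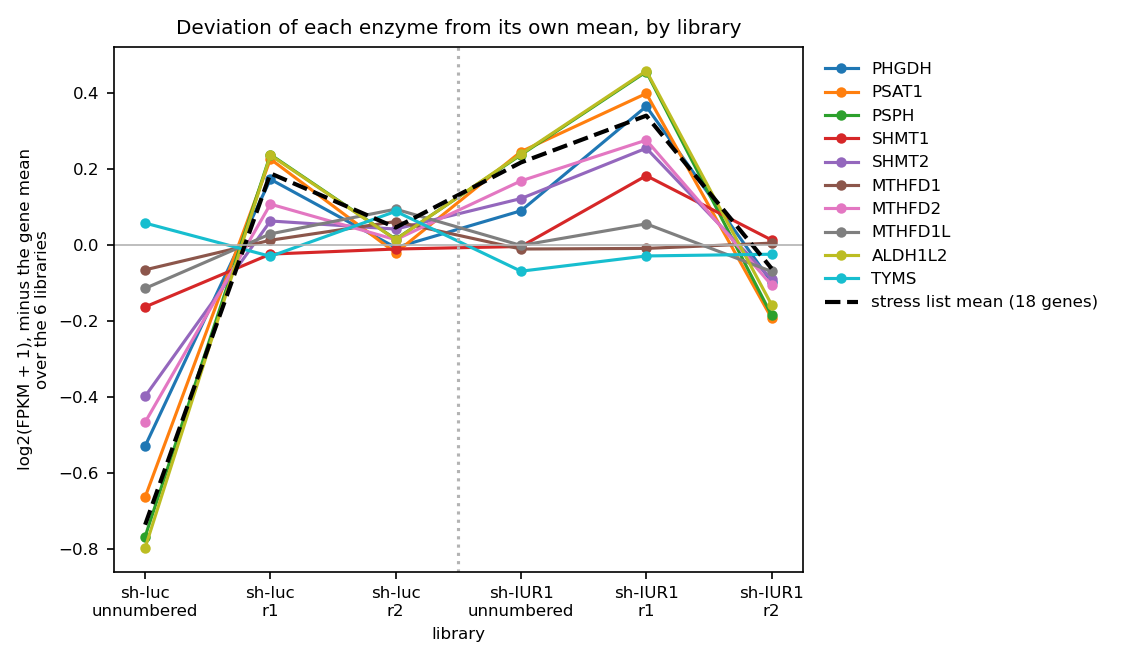
Deviation of log2(FPKM + 1) from the mean of each gene over the 6 libraries (y axis, log2 units) for the 10 enzymes and, dashed, the mean of 18 integrated stress genes that are not among them, by library (x axis); lines only join the points of a gene. PSPH and ALDH1L2 deviate by -0.77 and -0.80 in the unnumbered sh-luc library and by 0.46 each in sh-IUR1 r1, whereas MTHFD1 stays between -0.064 and 0.063.

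SHMT2 (gene 6472, chr12:57229573-57234935, plus strand), the mitochondrial hydroxymethyltransferase, was at 125.5, 173.1 and 170.6 FPKM in sh-luc and at 180.4, 197.9 and 155.6 FPKM in sh-IUR1. Apart from the low unnumbered sh-luc library, sh-IUR1 r2 was below both other controls. The means were 156.4 ± 26.8 and 178.0 ± 21.2 FPKM (SD, n = 3 each), and the log2 difference of 0.19 (-0.087 to 0.47) had an adjusted p of 0.930 from limma. It was 0.043 without the unnumbered sh-luc library. SHMT1 (gene 6470, chr17:18327860-18363563, minus strand), its cytosolic counterpart, was at 18.5, 20.5 and 20.7 FPKM in sh-luc and at 20.8, 23.8 and 21.0 FPKM in sh-IUR1. Every sh-IUR1 library was thus above every control, but the unnumbered sh-IUR1 library exceeded sh-luc r2 only by 20.76 against 20.66 FPKM. The means of SHMT1 were 19.9 ± 1.20 and 21.8 ± 1.66 FPKM (SD, n = 3 each), a ratio of 1.10. Its two-sided exact permutation p was 0.1, the smallest that 3 libraries against 3 allow, and its log2 difference was 0.13 (-0.044 to 0.30, adjusted p = 0.930 from limma). Without the unnumbered sh-luc library this was 0.081, and without sh-IUR1 r1 it was 0.070. Groups without overlap were found for 1 of the 10 enzymes and for 868 (7.07%) of all genes tested.

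MTHFD2 (gene 10797, chr2:74186172-74217565, plus strand), the mitochondrial dehydrogenase and cyclohydrolase, was at 108.8, 162.4 and 152.1 FPKM in sh-luc and at 169.5, 182.6 and 139.9 FPKM in sh-IUR1. MTHFD2, SHMT2, PSAT1 and ALDH1L2 ranked the 6 libraries alike. In these, and also in PHGDH and PSPH, sh-IUR1 r2 was above the unnumbered control and below the numbered ones. The means of MTHFD2 were 141.1 ± 28.5 and 164.0 ± 21.9 FPKM (SD, n = 3 each). The log2 difference was 0.23 (-0.093 to 0.55, adjusted p = 0.930 from limma), 0.052 without the unnumbered sh-luc library and 0.34 without sh-luc r1. RefSeq lists 7 pseudogenes of MTHFD2, not analysed here.

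ALDH1L2 (gene 160428, chr12:105019784-105107643, minus strand), the mitochondrial dehydrogenase of formyl-tetrahydrofolate, which yields CO2 and NADPH, was the least expressed and most variable member. It was at 3.73, 8.68 and 7.30 FPKM in sh-luc and at 8.70, 10.3 and 6.37 FPKM in sh-IUR1. Its unnumbered sh-luc value was lower than any other by a wide margin, with sh-luc r1 at 2.33 times that level. The means were 6.57 ± 2.55 and 8.45 ± 1.97 FPKM (SD, n = 3 each), a ratio of 1.29. The log2 difference of 0.36 (-0.18 to 0.90) had an adjusted p of 0.930 from limma, and it was 0.055 without the unnumbered sh-luc library and 0.57 without sh-luc r1. ALDH1L2 overlaps NOPCHAP1 by 54414 bases on the opposite strand. NOPCHAP1 was at 44.9 ± 4.89 and 44.9 ± 4.48 FPKM (SD, n = 3 each). The overlap is of whole gene spans with introns, and that of exons was not computed. The use of strand in counting is not stated, so how reads in the overlap were assigned is unknown.

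MTHFD1L (gene 25902, chr6:150865679-151101887, plus strand), which releases formate in mitochondria, differed from these enzymes in its profile. It was at 48.5, 53.7 and 56.2 FPKM in sh-luc and at 52.5, 54.7 and 50.03 FPKM in sh-IUR1. All sh-IUR1 libraries lay inside the range of the controls. The means were 52.8 ± 3.92 and 52.4 ± 2.32 FPKM (SD, n = 3 each), with a log2 difference of -0.0082 (-0.17 to 0.15, adjusted p = 0.987 from limma). MTHFD1 (gene 4522, chr14:64388031-64463457, plus strand), the cytosolic enzyme that joins formate to folate, was at 75.8, 80.0 and 82.8 FPKM in sh-luc and at 78.7, 78.8 and 79.6 FPKM in sh-IUR1. Its sh-IUR1 values lay closer together than those of any other member, at a mean of 79.0 ± 0.473 FPKM against 79.5 ± 3.56 FPKM in sh-luc (SD, n = 3 each). The log2 difference of MTHFD1 was -0.0079 (-0.13 to 0.12, adjusted p = 0.983 from limma). The sign of both differences turned positive under some alternatives. MTHFD1 overlaps ZBTB25 on the opposite strand by 14352 bases, and ZBTB25 was at 1.28 to 1.74 FPKM in 5 of the 6 libraries and at 1.19 FPKM in the unnumbered sh-luc library.

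TYMS (gene 7298, chr18:657653-673578, plus strand), thymidylate synthase, makes the DNA precursor dTMP from dUMP with a folate one-carbon unit. It was the most abundant member, at 294.3, 276.9 and 300.6 FPKM in sh-luc and at 269.4, 277.1 and 277.9 FPKM in sh-IUR1. The 2 highest values were those of sh-luc libraries, and sh-luc r1 lay among the sh-IUR1 libraries. The means were 290.6 ± 12.3 and 274.8 ± 4.68 FPKM (SD, n = 3 each), a ratio of 0.946. The log2 difference was -0.079 (-0.20 to 0.043, adjusted p = 0.930 from limma; two-sided exact permutation test, p = 0.3), and -0.070 without the unnumbered sh-luc library. TYMS was the only member lower in the unnumbered sh-IUR1 library than in any other library. Its span overlaps that of ENOSF1 by 3261 bases and that of TYMSOS by 698 bases, both on the opposite strand. How reads there were assigned is unknown too. ENOSF1 was at 36.2 ± 3.11 FPKM in sh-luc and 39.2 ± 3.15 FPKM in sh-IUR1, and TYMSOS at 28.3 ± 3.05 and 26.8 ± 2.08 FPKM (SD, n = 3 each).

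Over the 10 enzymes, 7 were higher and 3 lower in sh-IUR1 by the sign of the log2 difference, and of all genes tested 7119 were higher and 5157 lower. The median difference was 0.21, against 0.019 for all genes tested. Without the unnumbered sh-luc library these medians were 0.043 and 0.0047. With an adjusted p under 0.05 in limma, 0 of the 10 enzymes and 0 of the 12276 genes (0%) were called. At an unadjusted p under 0.05 it was 0 of the 10 enzymes and 325 genes (2.65%), of which 203 (1.65%) were higher and 122 (0.994%) lower in sh-IUR1. With quantile normalization 134 genes were higher and 177 lower at that p. The unadjusted p of the enzymes was between 0.127 (SHMT1) and 0.910 (MTHFD1L). The upper bounds of the 95% intervals ran from 0.043 for TYMS to 0.90 for ALDH1L2, so a p above the threshold does not show equal levels. The median standard deviation of log2(FPKM + 1) over the 6 libraries was 0.244 for the enzymes and 0.098 for all genes tested. In the authors' own clustering of the table into 9 groups, 7 of the 10 enzymes were placed in cluster 6, which holds 14.1% of the genes tested. That clustering rests on the same 6 columns.

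**Figure D3:**
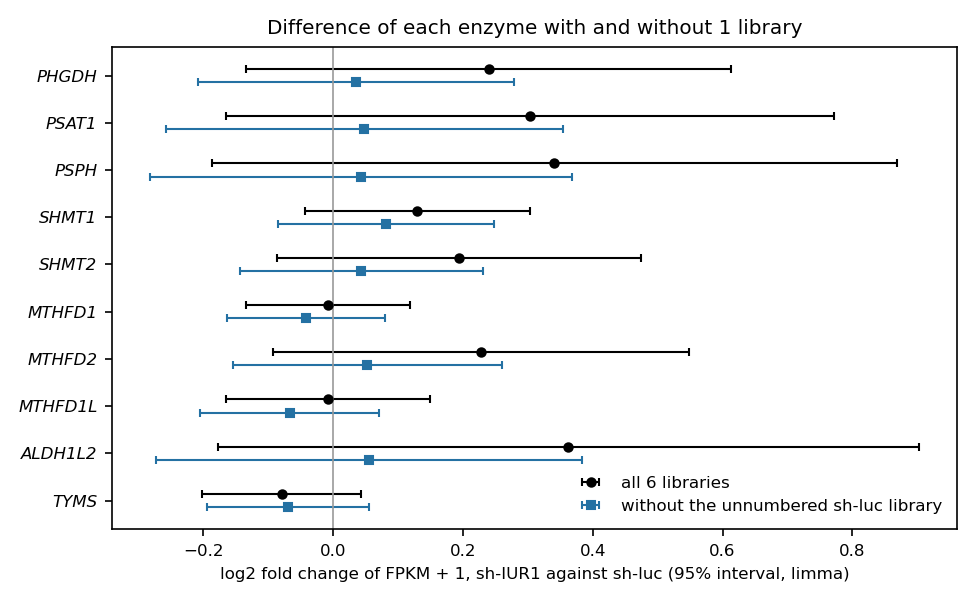
Difference in log2(FPKM + 1) between sh-IUR1 and sh-luc (x axis, log2 units, with 95% intervals from limma) for each enzyme (y axis), with all 6 libraries (black) and without the unnumbered sh-luc library (blue). All intervals include 0, and the value of ALDH1L2 moves from 0.36 to 0.055 when that library is left out, while that of TYMS moves from -0.079 to -0.070.

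By mean level per transcript length over the 6 libraries, the order was TYMS (282.7 FPKM), SHMT2 (167.2), MTHFD2 (152.5), PSAT1 (118.2), PHGDH (92.6), MTHFD1 (79.3), MTHFD1L (52.6), PSPH (23.1), SHMT1 (20.9) and ALDH1L2 (7.51 FPKM). The ranges of TYMS and SHMT2 did not overlap, nor did those of MTHFD1 and MTHFD1L, MTHFD1L and PSPH, or SHMT1 and ALDH1L2. SHMT2 exceeded MTHFD2 in 6 of 6 libraries, although by no more than 1.154-fold. PHGDH and MTHFD1 did not differ beyond their spread, with PHGDH the higher in 5 of 6 libraries, and neither did PSPH and SHMT1, with PSPH the higher in 4 of 6.

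SHMT2 and MTHFD2 varied more between libraries than the cytosolic enzymes SHMT1 and MTHFD1, while the ratio of MTHFD1L to MTHFD1 stayed within a narrow range. SHMT2 was 6.79, 8.46 and 8.26 times as abundant as SHMT1 in the sh-luc libraries and 8.69, 8.33 and 7.40 times in the sh-IUR1 libraries. The ratio of MTHFD2 to MTHFD1 was 1.44, 2.03 and 1.84 in control libraries and 2.15, 2.32 and 1.76 in knockdown libraries, whereas that of MTHFD1L to MTHFD1 was between 0.629 and 0.693 throughout. The lowest of the MTHFD2 ratios belonged to the unnumbered control and the highest to sh-IUR1 r1. Taking the mean log2(FPKM + 1) of SHMT2, MTHFD2, MTHFD1L and ALDH1L2 less that of SHMT1 and MTHFD1, the mitochondrial excess of the control libraries was 0.13, 0.58 and 0.48, and that of the knockdown libraries 0.60, 0.64 and 0.35. Its group means were 0.40 ± 0.23 and 0.53 ± 0.16 (SD, n = 3 each). They differed by 0.13 with all libraries and by 0.0013 without the unnumbered sh-luc library.

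**Figure D4:**
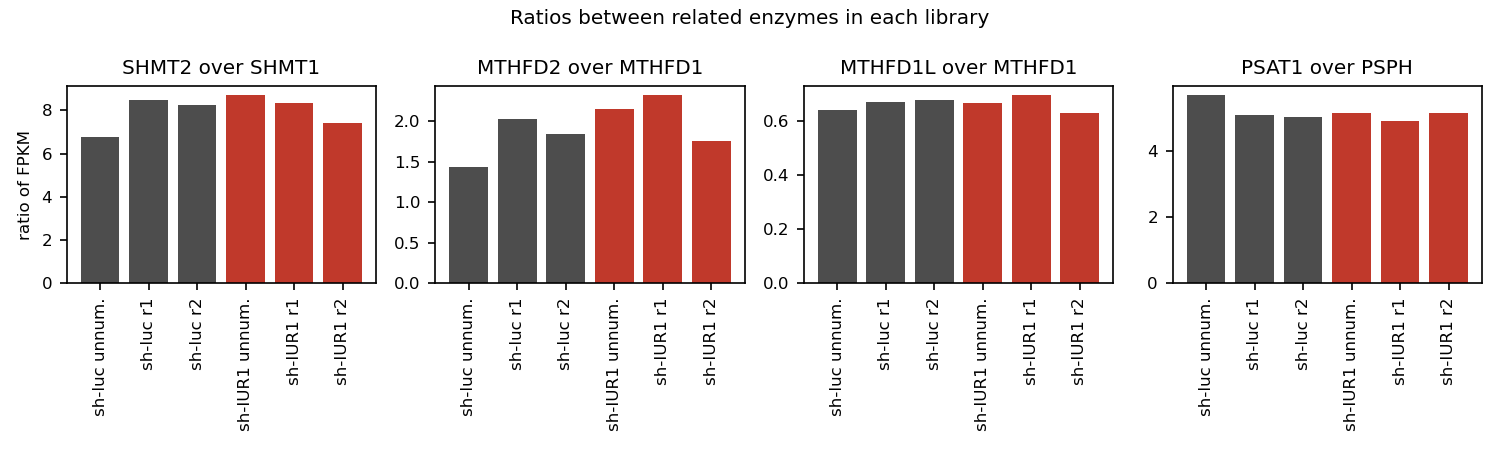
Ratio of FPKM between related enzymes (y axis, linear from 0) in each sh-luc (grey) and sh-IUR1 (red) library (x axis; unnum., unnumbered). The ratio of MTHFD2 to MTHFD1 ranges from 1.44 to 2.32, and that of MTHFD1L to MTHFD1 from 0.629 to 0.693.

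The other genes of the integrated stress response, which include further ATF4 targets, were also low in the unnumbered sh-luc library. Of the 19 listed, 18 were tested, 17 of them higher in sh-IUR1 and 0 with an adjusted p under 0.05 in limma (0 also at an unadjusted p under 0.05). All 18 were lowest in the unnumbered sh-luc library, and 12 also had their highest value in sh-IUR1 r1. Among all 12276 genes tested, 7119 were higher in sh-IUR1, 38.4% were lowest in that sh-luc library and 18.3% had both extremes. Averaged over these genes, log2(FPKM + 1) came to 5.11, 6.04 and 5.90 in the control libraries and 6.07, 6.19 and 5.79 in the knockdown libraries, and the median difference of 0.31 was 0.054 without the unnumbered sh-luc library. ATF4 itself, which is largely controlled at translation, varied little, at 278.8 ± 23.1 and 287.7 ± 9.07 FPKM (SD, n = 3 each). DDIT4, an inhibitor of mTORC1, was at 420.2 ± 223.7 and 550.0 ± 70.8 FPKM, and SLC3A2, the heavy chain of several amino acid exchangers, at 241.6 ± 46.4 and 273.7 ± 32.1 FPKM. DDIT3, the transcription factor CHOP, differed by 0.46 on the log2 scale and SLC7A11, the cystine carrier, by 0.44, both with an adjusted p of 0.930 from limma. Without the unnumbered sh-luc library the log2 differences were 0.084 for DDIT3, 0.15 for SLC7A11, 0.010 for DDIT4, 0.022 for SLC3A2 and -0.022 for ATF4. The part of the stress response in the profile of the 10 enzymes was not tested.

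Among folate carriers and other folate enzymes, 17 of 17 listed genes were tested, with 11 higher, 6 lower and 0 called by adjusted p in limma. The median log2 difference was 0.044, and 0.011 without the unnumbered sh-luc library. GART (164.3 ± 8.58 and 168.8 ± 6.52 FPKM) and ATIC (124.8 ± 6.08 and 128.9 ± 9.07 FPKM), which use formyl-folate in purine synthesis, varied little between libraries (SD, n = 3 each). ALDH1L1, the cytosolic counterpart of ALDH1L2, had the smallest unadjusted p of this list, 0.0355, with levels of 3.09 ± 0.505 and 3.85 ± 0.280 FPKM (SD, n = 3 each). Its adjusted p was 0.930 in limma, and its log2 difference of 0.25 became 0.16 without the unnumbered sh-luc library, with an unadjusted p of 0.115. SLC19A1, the reduced folate carrier, was at 39.7 ± 2.13 FPKM in sh-luc and 35.5 ± 3.62 FPKM in sh-IUR1 (SD, n = 3 each, adjusted p = 0.930 from limma). The groups did not overlap for 3 of the 17 genes, ALDH1L1 and, named after their values were seen, SLC46A1 and FTCD, against the 7.07% of all genes given above. FTCD was at no more than 0.26 FPKM.

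In the methionine cycle and transsulfuration, into which folate and serine feed, 8 of 12 listed genes were tested, 5 higher and 3 lower, with a median log2 difference of 0.032, which was -0.0053 without the unnumbered sh-luc library. The groups did not overlap for 1 of the 8, against 7.07% of all genes tested. This was MTRR, which was named after its values were seen and was lower in sh-IUR1 (log2 difference -0.055, adjusted p = 0.931 from limma). CTH, which makes cysteine from cystathionine, was at 29.9 ± 12.5 and 42.5 ± 10.7 FPKM, CBS at 108.5 ± 10.8 and 118.4 ± 6.42 FPKM, AHCY at 273.7 ± 13.2 and 276.7 ± 10.02 FPKM, and MAT2A, which makes S-adenosylmethionine, at 194.2 ± 22.7 and 174.3 ± 19.02 FPKM (SD, n = 3 each). The log2 difference of CTH was 0.56, and 0.17 without the unnumbered sh-luc library. Without that library the log2 differences of CBS and MAT2A moved from 0.13 to 0.044 and from -0.15 to -0.061. Of the glycine cleavage genes 3 of 4 were tested, with a median log2 difference of -0.037 (-0.0038 without it), GCSH at 113.0 ± 12.1 and 102.9 ± 5.28 FPKM, DLD at 48.1 ± 3.16 and 46.8 ± 2.92 FPKM and AMT under 1 FPKM in all libraries, and GLDC was not analysed here. Serine carriers and users numbered 9 tested of 11 listed, 4 higher and 5 lower, with a median log2 difference of -0.00011 (0.017 without the unnumbered sh-luc library). The mitochondrial serine carrier SFXN1 was at 56.5 ± 1.16 and 53.8 ± 1.44 FPKM, PTDSS1 at 88.3 ± 2.48 and 86.0 ± 2.71 FPKM and SPTLC1 at 37.4 ± 2.05 and 36.8 ± 3.31 FPKM, while SFXN2 (6.42 ± 1.61 and 8.01 ± 1.06 FPKM) and SDSL (5.92 ± 1.22 and 7.17 ± 1.44 FPKM) had the smallest unadjusted p of the list (SD, n = 3 each). Their log2 differences of 0.30 and 0.24 were 0.10 and 0.12 without the unnumbered sh-luc library. None of these 3 lists held a gene called by adjusted p in limma, and none held one at an unadjusted p under 0.05.

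The S phase genes that work beside TYMS, 15 of 15 tested, had a median log2 difference of -0.022 with 7 higher and 8 lower, and a median of -0.043 without the unnumbered sh-luc library. None of the 15 had the unnumbered sh-luc library lowest and sh-IUR1 r1 highest, against 18.3% of all genes tested. Both extremes were found for 6 of the 17 folate genes (35.3%) and 4 of the 8 methionine cycle and transsulfuration genes (50%). They were also found for 3 of the 9 serine carriers and users (33.3%), and for 0 of the 3 glycine cleavage genes. PCNA, the replication clamp, was at 170.1 ± 13.5 and 150.2 ± 11.9 FPKM (SD, n = 3 each). It was the only gene of the 15 whose groups did not overlap, against 7.07% of all genes tested. Its p in limma was 0.0446 unadjusted and 0.930 adjusted. Without the unnumbered sh-luc library the log2 difference of PCNA moved from -0.18 to -0.11 and the unadjusted p to 0.126. The helicase subunits MCM7 (306.7 ± 16.1 and 307.9 ± 0.578 FPKM), MCM3 (135.3 ± 3.49 and 132.7 ± 4.01 FPKM) and MCM4 (99.4 ± 1.90 and 93.8 ± 5.01 FPKM) had adjusted p-values of at least 0.930 from limma (SD, n = 3 each).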

How the data were processed

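Total RNA of K562 cells was sequenced in 6 libraries. According to the methods the authors trimmed and masked reads, mapped them to hg38 and computed RPKM with SAMtools 0.1.19; the aligner and annotation are not given in the sources used here. The deposited FPKM have 2 decimals, and the lowest standard deviation of a listed gene is 0.05 FPKM. The authors also deposited a score (z-score of FPKM over the libraries), a cluster number and a fraction (cluster membership); of these only the cluster number is given here. The smallest value above 0 was 0.01 FPKM, the rounding step, so depth was not recovered and no count model was used.

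Symbols were assigned by Entrez identifier from RefSeq GRCh38.p14 for 12363 of 12486 genes; positions and overlaps came from GENCODE release 44 on hg38. Genes averaging 0.1 FPKM or more, 12276 in all, entered a fit of log2(FPKM + 1) by limma 3.58.1 in R 4.3.3 (eBayes with a trend, two-sided, Benjamini-Hochberg over all genes), after tests on simulated data. On this scale differences of low genes come out too small. Exact permutation tests used scipy 1.17.1.

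The members and lists were chosen with earlier results of these data known. Of each other list the 3 genes with the highest mean FPKM and the 2 with the smallest unadjusted p are named; 1 gene that this rule names is not reported here. As alternatives each library was left out in turn, and fits were run with a replicate block, without the trend, without the filter or with a stricter one (mean of 1 FPKM), with quantile normalization or median-ratio scaling, and with 0.1 as pseudocount.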

Additional observations from a re-analysis of the deposited data

How the results depend on the processing

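Under each of 13 alternatives 0 genes were called by adjusted p in limma, and adjusted p-values of the 10 enzymes were between 0.667 and 0.9997. The genes at an unadjusted p under 0.05, 325 in the text, were between 156 and 854 when 1 library was left out (156 without the unnumbered sh-IUR1 library, 712 without r2 of sh-IUR1 and 854 without r1 of sh-luc), and 533 with the replicate block. The block left every log2 difference as it was (PHGDH, 0.24) and called no enzyme. Libraries of 1 number were not taken as pairs: correlations of same-numbered deviations were 0.04 (unnumbered), 0.39 (r1) and -0.34 (r2). Of 130 log2 differences of enzymes under alternatives, 125 kept their sign. The others were those of MTHFD1 (0.012 with quantile normalization and -0.042 to 0.022 over the libraries left out) and MTHFD1L (-0.067 to 0.037). Of 454 over all named genes 15 reversed, these included. With median-ratio scaling the values were -0.0042 for AHCY and -0.014 for MCM7. Over the libraries left out the range was -0.0039 to 0.072 for GART, -0.091 to 0.015 for DLD, -0.021 to 0.048 for AHCY, -0.066 to 0.049 for SPTLC1, -0.029 to 0.046 for MCM7 and -0.022 to 0.090 for ATF4. The cause of these reversals was not tested. The mitochondrial excess differed between groups by 0.0013 to 0.22 over the libraries left out. Depth is unknown, and 3 libraries per group limit the precision.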

Other observations

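The genes whose profile over the 6 libraries was nearest to that of an enzyme were found by the root-mean-square distance between log2(FPKM + 1) values centred and scaled per gene, where the mean was 1 FPKM or more. For PHGDH they were C2CD2L, AP3S2, YY1AP1, STAT5B and KIF3C, at distances of 0.014 to 0.048. C2CD2L ranged from 15.6 to 21.3 FPKM and PHGDH from 62.8 to 117.5 FPKM, so that likeness of profile is not likeness of size. For MTHFD2 they were ULBP1, GARS1, TNRC6B, PCK2 and MYCL, at 0.028 to 0.047. PCK2, the mitochondrial phosphoenolpyruvate carboxykinase, was at 31.7, 80.5 and 73.2 FPKM in sh-luc and 90.8, 108.9 and 57.6 FPKM in sh-IUR1. GARS1, the glycyl-tRNA synthetase, was at 168.6, 256.4 and 238.7 FPKM in sh-luc and 272.6, 294.1 and 221.5 FPKM in sh-IUR1. For TYMS they were NUDT19, ACTR5, PCBP1, SZRD1 and MEGF9, at 0.092 to 0.20. With 1 library left out, a check chosen after seeing the data, 2 to 4 of the 5 genes nearest to PHGDH were kept, 2 to 3 of those nearest to MTHFD2 and 0 to 2 of those nearest to TYMS. With quantile normalization it was 2 of 5 for PHGDH, 1 for MTHFD2 and 0 for TYMS.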
